A study of Rattus norvegicus with 18 samples.

Results

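Antioxidant defence was followed in rat motor cortex through 10 genes, chosen by symbol: Gpx4, Gpx1, Gclc, Txn1, Txnrd1, Prdx1, Sod2, Cat, Nfe2l2 and Hmox1. All 10 were found in both deposited tables, among 12560 genes at day 7 and 31038 genes at day 30, and all 10 had enough reads to be tested in every comparison. The study sequenced polyA RNA from motor cortex after spinal cord injury, described in the series as neurons enriched from that tissue, in 18 libraries that form 6 groups of 3. At day 7 there were male inj libraries (numbered 2, 3 and 4) and male Sham libraries (1, 1-RNA and 3). At day 30 there were female In and female S libraries (each 1, 2 and 3), male In libraries (1, 2 and 3) and male S libraries (1, 2 and 4). Sham is spelled out in the library titles, while inj, In and S are not, and these names are used as they stand. The strain, the age and the site of the injury are not given in the sources used here.

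Cells make superoxide and hydrogen peroxide as by-products of respiration and inflammation, and remove them through a few linked enzyme systems. Superoxide dismutases turn superoxide into hydrogen peroxide, which is then broken down by catalase, by glutathione peroxidases that draw on glutathione, and by peroxiredoxins that draw on thioredoxin. Many of these genes are switched on by the transcription factor NRF2 (gene Nfe2l2), which the adaptor KEAP1 marks for degradation until oxidants or electrophiles modify it. In brain, neurons depend on glutathione precursors supplied by astrocytes, and haem oxygenase 1 (Hmox1) is low at rest and readily induced in microglia and macrophages.

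The day 7 inj libraries held 14650528 to 17013273 counts and the Sham libraries 2683105 to 3014083. The day 30 libraries held 14532252 to 18211986 counts, apart from male S 1 with 27849794. Levels are given as CPM, in which each count is set against its library's total after edgeR's TMM factor corrected that total for its make-up. At this depth 3 counts corresponded to 0.160 to 0.186 CPM in inj and 1.09 to 1.23 CPM in Sham. Whether libraries of a group come from different animals is not stated, and p-values then reflect library-to-library spread, which may be technical. Sham 1 and Sham 1-RNA share a number and may be 1 sample, yet their counts lay further apart (chi-square per gene 35.1) than those of Sham 1 and Sham 3 (3.48). RefSeq lists pseudogenes or close copies of Gpx4, Txn1, Prdx1 and Sod2, so their counts may be shared with those copies and are uncertain to that extent. Markers of cells other than neurons were abundant in both tables. Among 10 oligodendrocyte markers, the summed level was 70750 CPM in Sham 1-RNA, apart from 207600 in Sham 1 and 192800 in Sham 3, and 10540 CPM in male In 1, apart from 54310 and 77450 in the other male In libraries.

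NRF2 acts with small MAF proteins at the antioxidant response element. Its core, TGACNNNGC, was searched on both strands of the RefSeq promoters of the rat assembly GRCr8, each running from 250 bases before to 50 bases after a gene's start. The core was held by 12.1% of 33469 promoters and by 13.1% of 27457 genes. Of the 9 members with a promoter in that set, 4 held it: Prdx1, Sod2, Txnrd1 and Nfe2l2. Hmox1 had no promoter in that set and was not searched. The Prdx1 and Sod2 promoters are shown because both genes hold a match and each passed the test in 1 of the comparisons. Prdx1 lies on the plus strand at chr5:135383656-135383955 and Sod2 on the minus strand at chr1:50050119-50050418. Both are written along the gene's strand, with the core match in capitals.
Prdx1: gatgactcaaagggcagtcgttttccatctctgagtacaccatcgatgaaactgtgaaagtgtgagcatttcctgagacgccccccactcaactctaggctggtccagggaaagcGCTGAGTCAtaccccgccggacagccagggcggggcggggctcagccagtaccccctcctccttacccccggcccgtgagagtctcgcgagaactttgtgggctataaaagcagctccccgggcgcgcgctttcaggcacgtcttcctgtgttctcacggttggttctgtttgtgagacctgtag
Sod2: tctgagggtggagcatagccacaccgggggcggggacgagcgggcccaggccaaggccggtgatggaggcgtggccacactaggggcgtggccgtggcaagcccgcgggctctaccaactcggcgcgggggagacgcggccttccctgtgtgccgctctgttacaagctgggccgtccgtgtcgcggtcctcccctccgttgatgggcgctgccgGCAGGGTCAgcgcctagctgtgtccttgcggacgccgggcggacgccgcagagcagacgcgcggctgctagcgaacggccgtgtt
Positions are counted from the gene's start. The Prdx1 match begins at -135 and holds within it the AP-1 motif TGACTCA, read on the other strand. Prdx1 held 2 AP-1 matches, and 4.63% of all promoters held at least 1. The Sod2 match begins at -35. Txnrd1 had the match GCTTTGTCA at -78 of its second listed start, and Nfe2l2 had TGACGCCGC at 39 bases past its start. These matches describe letters only and no binding was measured.

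The day 7 comparison of inj with Sham asks how male motor cortex stood a week after injury. Every inj library (14650528 to 17013273 counts) was deeper than every Sham library (2683105 to 3014083). Injury cannot be told apart here from any difference in how those sets were prepared or sequenced. Hmox1, the inducible haem oxygenase, averaged 16.9 ± 2.6 CPM in inj and 7.94 ± 0.72 CPM in Sham, and Sod2, the mitochondrial superoxide dismutase, averaged 138 ± 8 CPM in inj and 184 ± 14 CPM in Sham (SD, n = 3 each). No member of the glutathione or thioredoxin systems passed the test. Thus 1 of 10 members rose and 1 fell (edgeR's quasi-likelihood test, Benjamini-Hochberg adjusted p under 0.05), while 19.3% of the 11786 genes tested were higher in inj and 15.4% were lower. The median log2 fold change was 0.04 over the members and -0.00 over all genes tested.

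Hmox1 encodes the inducible enzyme that opens haem into biliverdin, iron and carbon monoxide. Its level was 15.8, 15.0 and 19.8 CPM in inj 2, 3 and 4, against 7.79, 8.73 and 7.31 CPM in Sham 1, 1-RNA and 3. Every inj library lay above every Sham library, with 255, 281 and 371 reads behind the inj values and 19, 24 and 19 behind the Sham values. The log2 fold change was 1.08 ± 0.21 (SE; 2.12-fold, edgeR adjusted p = 0.00323). The call held under all 13 settings tried, with log2 fold changes of 0.945 to 1.36.

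Markers of vascular and immune cells moved with Hmox1. Of 12 microglia markers 11 were higher in inj, and their summed level was 3560 to 3768 CPM in inj and 690 to 890.2 CPM in Sham. All 10 endothelial markers listed were higher in inj (summed 2085 to 2520 CPM in inj and 277.8 to 358.9 CPM in Sham), and the endothelial genes Slco1a4 and Ly6c1 were not listed. All 9 pericyte and smooth muscle markers were higher as well, with sums of 1284 to 1427 CPM in inj and 188.1 to 293.5 CPM in Sham. Set against the microglia markers of the same library, Hmox1 had 4.23, 4.21 and 5.25 counts per 1000 marker counts in inj, against 11.3, 11.1 and 8.21 in Sham. That ratio, chosen after the values were seen, was therefore lower in every inj library than in every Sham library. The part of these cells in the Hmox1 level was not tested. In bulk RNA a change in the number of cells and a change in RNA per cell cannot be told apart.

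**Figure D1:**
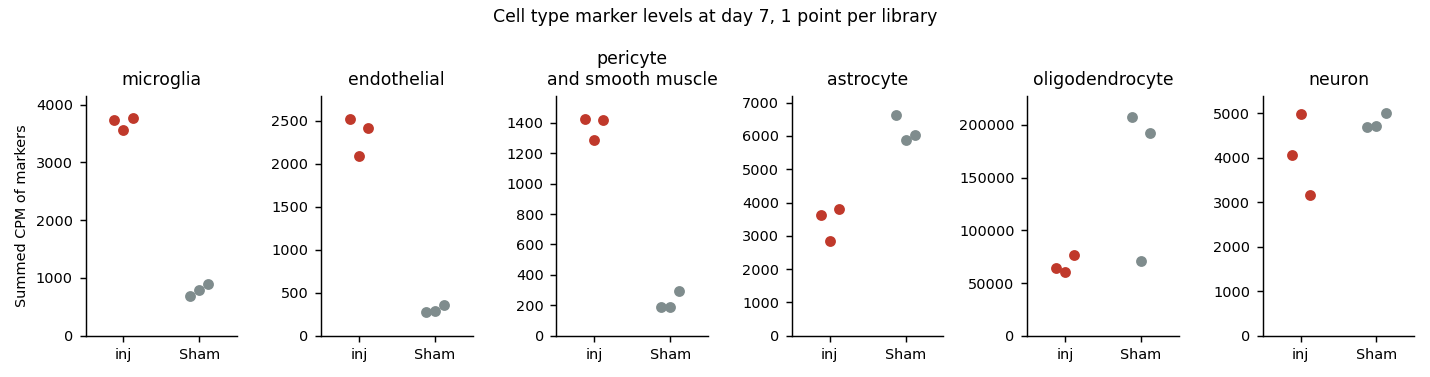
Summed CPM of 6 cell type marker lists at day 7, with 1 point for each inj and each Sham library. Microglia sums are 3560 to 3768 in inj and 690 to 890.2 in Sham, while the 3 Sham libraries spread from 70750 to 207600 for oligodendrocyte markers.

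Sod2 encodes the manganese enzyme that removes superoxide inside mitochondria. Its level was 128, 141 and 144 CPM in inj 2, 3 and 4, against 189.7, 195 and 168 CPM in Sham 1, 1-RNA and 3. The groups did not overlap, and the log2 fold change was -0.42 ± 0.13 (0.748-fold, edgeR adjusted p = 0.0321). The call was near the threshold. Leaving out inj 2 ended it (adjusted p = 0.14), as did leaving out inj 3 (0.0709), Sham 1 (0.0999) and Sham 3 (0.0512). The log2 fold changes of Sod2 in those 4 fits stayed between -0.469 and -0.377. The call was also lost when all libraries were thinned to the smallest total (-0.383, adjusted p = 0.0634). With library totals in place of TMM the log2 fold change was -0.148 (adjusted p = 0.502). The same scale moved the median of all genes tested to 0.276. The astrocyte marker sum also did not overlap, with 2837 to 3813 CPM in inj and 5891 to 6615 CPM in Sham, and 3 of 10 astrocyte markers fell while 4 rose. Its part in the Sod2 level was not tested.

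The glutathione peroxidases did not pass the test at day 7. Gpx4, which reduces lipid peroxides within membranes and so restrains ferroptosis, had 431, 389.6 and 442 CPM in inj 2, 3 and 4, against 389 CPM in Sham 1, 321 in Sham 1-RNA and 359.7 in Sham 3. Gpx1, the main cytosolic glutathione peroxidase, had 90.0, 82.7 and 107 CPM in inj, against 76.6, 80.4 and 77.3 CPM in Sham. For both genes each inj library lay above each Sham library, by 0.24 ± 0.15 for Gpx4 (adjusted p = 0.232, and 0.159 without Sham 1-RNA) and 0.25 ± 0.14 for Gpx1 (0.187) on the log2 scale. Gclc, the catalytic subunit of the enzyme that limits glutathione synthesis, had 38.99, 39.8 and 40.0 CPM in inj, just below 40.1, 46.2 and 49.6 CPM in Sham (adjusted p = 0.299). In all, 5 of 10 members had groups that did not overlap, against 48.4% of all genes tested. With library totals as the scale, Gpx4 (0.525, adjusted p = 0.0144) and Gpx1 (0.528, adjusted p = 0.0294) passed, as did Nfe2l2 (0.547, adjusted p = 0.0234).

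The thioredoxin members overlapped between inj and Sham. Txn1, the small protein that hands electrons to peroxiredoxins, had 85.6, 93.7 and 115 CPM in inj and 115.5, 76.7 and 89.6 CPM in Sham (log2 0.06, adjusted p = 0.817, and -0.0732 without Sham 1-RNA). Txnrd1, the cytosolic reductase that recharges it with NADPH, had 51.9 to 58.3 CPM in inj and 50.9 to 56.9 CPM in Sham. The 95% interval of its log2 fold change ran from -0.27 to 0.31. Prdx1, a peroxiredoxin that uses thioredoxin to reduce hydrogen peroxide, had 176, 154 and 183 CPM in inj, against 225, 158 and 223 CPM in Sham (log2 -0.24, adjusted p = 0.299). Its overlap came from Sham 1-RNA, and without that library the log2 fold change was -0.403 (adjusted p = 0.022).

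Catalase and the regulator Nfe2l2 overlapped between inj and Sham. Cat, the peroxisomal enzyme that splits hydrogen peroxide, had 49.8 CPM in inj 2, apart from 30.7 and 24.5 CPM in inj 3 and 4, against 43.4, 53.1 and 43.9 CPM in Sham. Its log2 fold change was -0.42 ± 0.25 (adjusted p = 0.221), and without inj 2 it was -0.769 (adjusted p = 0.0185). Nfe2l2 had 52.7, 47.8 and 55.5 CPM in inj, against 44.7, 33.8 and 52.3 CPM in Sham (log2 0.26, adjusted p = 0.282). Without Sham 1-RNA its log2 fold change was 0.0873 (adjusted p = 0.676). NRF2 is controlled mainly at the level of protein, which RNA does not show.

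**Figure D2:**
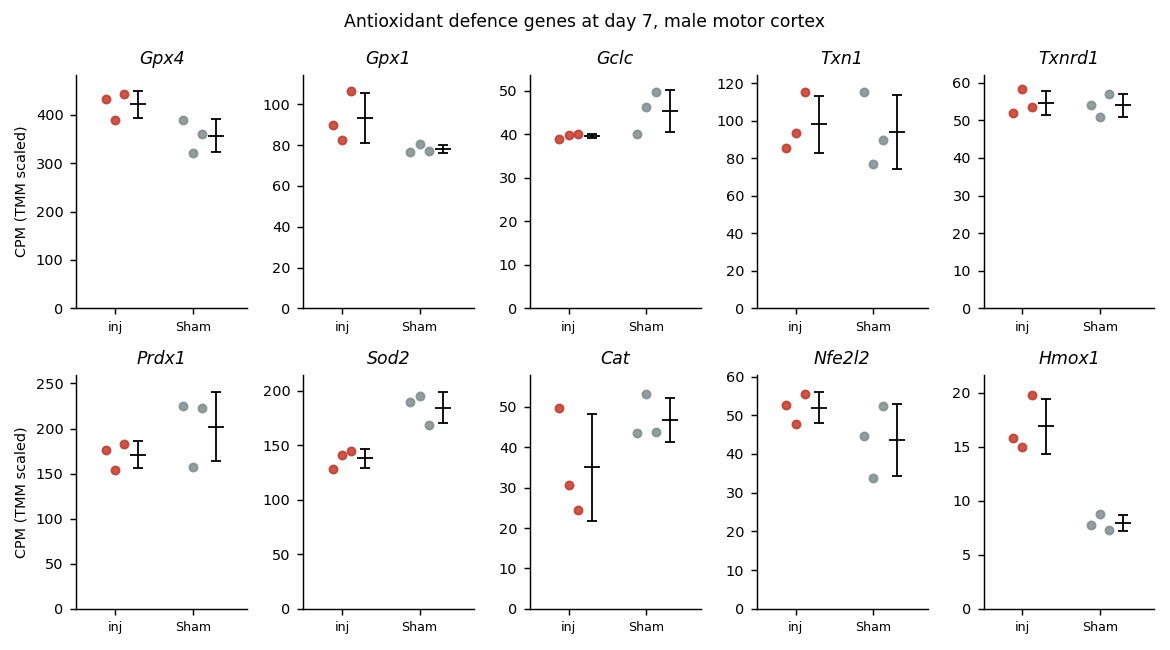
Level of the 10 genes at day 7 in CPM, with 1 point for each inj and each Sham library, and a bar for the mean ± SD (n = 3). Hmox1 is higher in all inj libraries (15.0 to 19.8 CPM) than in Sham (7.31 to 8.73 CPM), and Sod2 is lower (128 to 144 CPM in inj and 168 to 195 CPM in Sham).

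A wider set of 62 genes of the same pathways, 59 of them tested, held 12 that rose and 4 that fell at day 7, to be read beside the 19.3% of all genes tested that rose and the 15.4% that fell. In glutathione handling, 4 of 9 rose and 0 fell, among them Slc3a2 (182 CPM in inj and 78.2 CPM in Sham, log2 1.22, adjusted p = 0.000125), which pairs with the cystine transporter Slc7a11. Slc7a11 itself had 60.1 CPM in inj and 54.5 CPM in Sham and was not called (adjusted p = 0.665). In the thioredoxin and peroxiredoxin list 2 of 14 rose and 1 fell. Txnip, which binds and inhibits thioredoxin, rose to 120 CPM in inj against 47.9 CPM in Sham (log2 1.32, adjusted p = 0.000233), and Prdx6 fell by 0.40 (adjusted p = 0.0388). Slc3a2, Txnip and Tfrc are also expressed in blood vessel cells, whose markers rose in the same libraries, and the part of those cells was not tested.

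Of 8 genes of haem and iron handling, 3 rose and 2 fell at day 7, beside the same shares of all genes (19.3% and 15.4%), and the list as a whole was not tested. The transferrin receptor Tfrc, which takes up iron, rose by 1.15 on the log2 scale (141 CPM in inj and 63.4 CPM in Sham, adjusted p = 0.00014), and the iron exporter Slc40a1 rose by 1.71 (12.7 CPM in inj and 3.88 CPM in Sham, adjusted p = 0.00913). The ferritin subunits, which store iron, fell: Ftl1 had 753 CPM in inj and 1114 CPM in Sham (-0.56, adjusted p = 0.0333), and Fth1 had 7032 CPM in inj and 14110 CPM in Sham (-1.01, adjusted p = 0.0319). The Fth1 groups overlapped. Oligodendrocyte marker sums were 60690 to 76880 CPM in inj and 70750 to 207600 CPM in Sham, and their part in the ferritin levels was not tested. Whether the day 7 calls of this wider set hold on another scale, or with a library left out, was not tested. None of the 7 tested NRF2 control genes passed, and Keap1 had 96.7 CPM in inj and 86.3 CPM in Sham (adjusted p = 0.352). Among 18 tested genes of NADPH supply and NRF2-regulated detoxification, 2 rose and 1 fell. The membrane-bound glutathione transferases Mgst3 (log2 1.04, adjusted p = 0.000551) and Mgst1 (1.07, adjusted p = 0.0242) rose. Me1, the malic enzyme that yields NADPH, fell by 0.82 (adjusted p = 0.00125). Nqo1, a quinone reductase that NRF2 drives, was not called (-0.25, adjusted p = 0.31), nor were Gclm (-0.37, adjusted p = 0.143) and Srxn1 (0.14, adjusted p = 0.63). Sod1, the cytosolic superoxide dismutase, had 184 CPM in inj and 196 CPM in Sham (adjusted p = 0.631), while the extracellular Sod3 rose by 0.83 (14.6 CPM in inj and 8.12 CPM in Sham, adjusted p = 0.0363).

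At day 30 after injury In was compared with S within each sex, first in males. No member passed edgeR's test, and 0% of the 15074 genes tested passed it. At an unadjusted p under 0.05 there was 1 member of 10, Txn1, against 1232 of the 15074 genes tested. DESeq2 called 0 members. Txn1 had 88.3, 61.4 and 59.6 CPM in male In 1, 2 and 3, against 60.0, 47.2 and 48.9 CPM in male S 1, 2 and 4 (log2 0.42 ± 0.19, adjusted p = 0.608). Male In 1 stood above the rest, and S 1 lay within the range of the other In libraries. Without male In 1 the log2 fold change of Txn1 was 0.22 (adjusted p = 0.976).

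Male In 1 stood apart for Gpx4, Gpx1 and Sod2. Gpx4 had 672 CPM in male In 1 and 356 and 386 CPM in In 2 and 3, against 332, 361 and 407 CPM in male S 1, 2 and 4. Its log2 fold change was 0.36 ± 0.21 (adjusted p = 0.646) with male In 1 and 0.02 without it. Gpx1 had 115 CPM in male In 1 and 63.5 and 66.0 CPM in In 2 and 3, against 76.1, 50.6 and 59.4 CPM in male S (log2 0.39 ± 0.22, and 0.06 without male In 1). Sod2 went the other way, with 39.4 CPM in male In 1 and 68.5 and 73.0 CPM in In 2 and 3, against 66.6, 67.3 and 73.0 CPM in male S (log2 -0.19 ± 0.19, and 0.04 without male In 1). The same library had the lowest oligodendrocyte marker sum of the 12 day 30 libraries (10540 CPM) and the highest sum of 6 red blood cell markers (617.7 CPM, against at most 170.3 CPM in any other). The part of either in these levels was not tested.

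Prdx1 was the 1 member of 10 whose male groups did not overlap, against 11.5% of all genes tested. It had 105, 87.4 and 103 CPM in male In and 87.2, 81.4 and 77.4 CPM in male S, so that In 2 exceeded S 1 by less than 1 CPM (log2 0.27 ± 0.16, adjusted p = 0.648). Hmox1 was spread most widely in S: male S 1 had 37.9 CPM and S 2 and S 4 had 13.5 and 10.9 CPM, with 17.1, 23.7 and 15.0 CPM in male In 1, 2 and 3. Its log2 fold change was -0.17 ± 0.42 (adjusted p = 0.912), and 0.617 without male S 1 (adjusted p = 0.456). Male S 1 also had the most microglia marker signal of the male S libraries, 2047 CPM against 1450 and 1292, and the part of that was not tested. The remaining members, Gclc, Txnrd1, Cat and Nfe2l2, had overlapping groups and log2 fold changes between -0.16 and 0.36.

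In females at day 30, In and S were close. No member passed edgeR's test, where 0.0332% of all genes did, and DESeq2 called 0. At an unadjusted p under 0.05 there were 0 members, against 261 of the 15074 genes tested. Gpx4 had 240.3, 184 and 206 CPM in female In 1, 2 and 3, against 194, 220 and 246 CPM in female S 1, 2 and 3. Nfe2l2 averaged 30.3 ± 3.7 CPM in female In and 30.3 ± 2.0 CPM in female S (SD, n = 3 each), with a 95% interval of -0.31 to 0.31 for the log2 fold change. Txnrd1 was the 1 member of 10 without overlap, against 8.02% of all genes tested: 30.3, 33.4 and 30.8 CPM in female In and 29.1, 30.0 and 27.7 CPM in female S (log2 0.12 ± 0.16, adjusted p = 1). Hmox1 had 12.5, 7.68 and 5.80 CPM in female In and 7.06, 9.32 and 10.3 CPM in female S, and its 95% interval of -0.95 to 0.86 leaves room for nearly a 2-fold difference either way. Cat had 14.5 CPM in female In 1 and 32.3 and 37.5 CPM in In 2 and 3, against 32.9, 35.1 and 37.6 CPM in female S. Without female In 1 its log2 fold change was -0.02, and with it -0.32 ± 0.27.

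None of the 59 tested genes of the wider pathway set passed between In and S in either sex. Sod1 had 118 CPM in male In and 80.7 CPM in male S, without overlap (log2 0.55 ± 0.19, adjusted p = 0.599). Keap1 had 62.9 CPM in male In and 56.6 CPM in male S, and 46.0 CPM in female In and 48.4 CPM in female S.

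**Figure D3:**
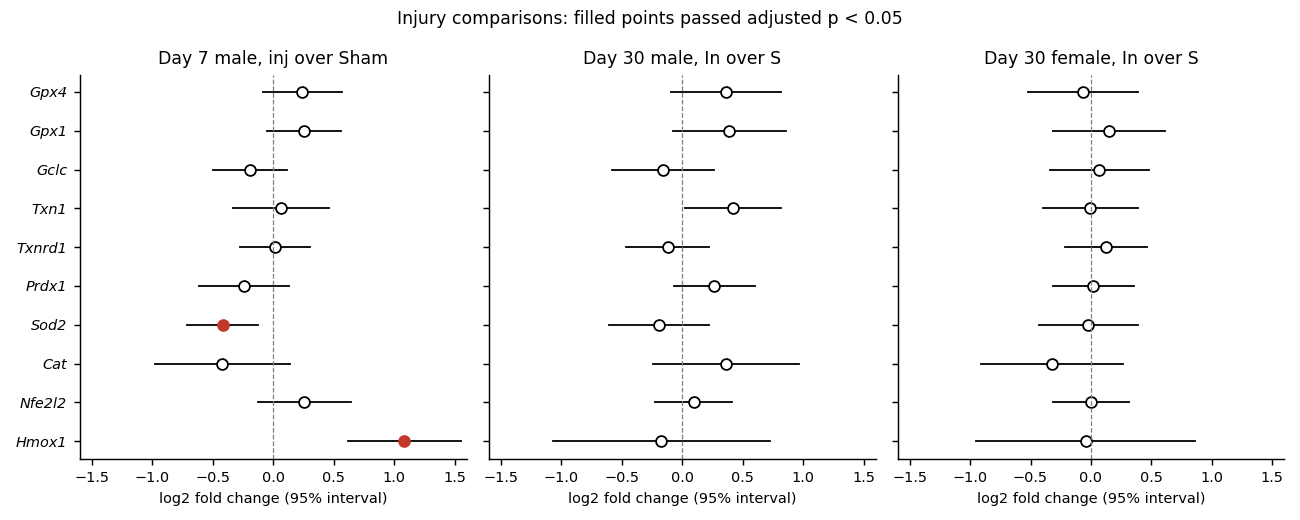
Log2 fold change with its 95% interval for the 10 genes in male inj over Sham at day 7, male In over S at day 30 and female In over S at day 30. Filled points, Hmox1 (1.08) and Sod2 (-0.42) at day 7, passed the adjusted p of 0.05, and no point at day 30 did.

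The response in females was not shown to differ from that in males. The difference of the In minus S effects, female minus male, passed for 0 members and for 0% of all genes tested. At an unadjusted p under 0.05 there were 0 members, against 619 of the 15074 genes tested, and DESeq2 called 0 members. For Cat the difference was -0.68 ± 0.39 on the log2 scale (adjusted p = 0.94), and -0.371 without female In 1. The difference of the male effects, day 30 minus day 7, likewise passed for 0 members, although 13% of the 11693 genes tested in both tables passed. For Hmox1 it was -1.20 ± 0.56 (adjusted p = 0.183, and -0.421 without male S 1), for Cat 0.84 ± 0.36 (adjusted p = 0.144) and for Prdx1 0.56 ± 0.22 (adjusted p = 0.12). The unadjusted p was under 0.05 for 2 of 10 members, Cat and Prdx1, against 3200 of the 11693 genes tested. DESeq2 called 0 members. The tables were counted differently, so levels are not set side by side between days.

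The largest contrasts among the members at day 30 were between the sexes. Gpx4, which reduces lipid peroxides, averaged 209.9 ± 28.5 CPM in female In and 471 ± 174 CPM in male In, and Txn1, thioredoxin, averaged 31.5 ± 5.0 CPM in female In and 69.8 ± 16.0 CPM in male In (SD, n = 3 each). Gpx1 and Prdx1 were also lower in female In. In the In libraries 4 of 10 members were thus lower in females and 0 higher, against 6.59% of all genes tested that were lower. In the S libraries 1 of 10, Txn1, was lower and 0 were higher, against 1.27% of all genes. The median log2 fold change, female over male, was -0.27 over the members and 0.03 over all genes in the In libraries, and -0.23 over the members and 0.03 over all genes in the S libraries. This comparison addresses the levels by sex within each group, and its size rests on the scale used. Female and male libraries also differed as whole sets, for instance in their share of mitochondrially encoded counts. Sex cannot be told apart here from any difference in how those sets were prepared or sequenced.

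Txn1 separated the sexes without overlap. It had 36.1, 26.1 and 32.1 CPM in female In 1, 2 and 3, against 88.3, 61.4 and 59.6 CPM in male In. In the S libraries it had 28.2, 29.5 and 37.0 CPM in females, against 60.0, 47.2 and 48.9 CPM in males. The log2 fold change was -1.15 ± 0.19 in In (edgeR adjusted p = 0.00259) and -0.72 ± 0.19 in S (adjusted p = 0.0481). The S call was lost when any 1 of the 6 S libraries was left out (adjusted p = 0.066 to 0.226).

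Gpx4 had the same order. It had 240.3, 184 and 206 CPM in female In against 672, 356 and 386 CPM in male In, a log2 fold change of -1.17 ± 0.22 (adjusted p = 0.00408). Without male In 1 the log2 fold change was -0.821 (adjusted p = 0.00463). In S it had 194, 220 and 246 CPM in females against 332, 361 and 407 CPM in males (-0.74 ± 0.22, adjusted p = 0.0749). All female libraries lay below all male libraries in both groups.

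Gpx1 averaged 49.7 ± 7.0 CPM in female In and 81.5 ± 29.0 CPM in male In (SD, n = 3 each; log2 -0.71 ± 0.22, adjusted p = 0.0445). Without male In 1 the log2 fold change was -0.381 (adjusted p = 0.193). Prdx1 had 77.2, 56.7 and 73.6 CPM in female In, against 105, 87.4 and 103 CPM in male In (-0.51 ± 0.16, adjusted p = 0.0448), and -0.463 without male In 1 (adjusted p = 0.0834). The Gpx1 call was also lost without female In 2 (adjusted p = 0.188) or female In 3 (0.105). The Prdx1 call was also lost without female In 2 (0.217), female In 3 (0.0924) or male In 3 (0.106).

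Hmox1 averaged lower in females in both groups. It had 12.5, 7.68 and 5.80 CPM in female In against 17.1, 23.7 and 15.0 CPM in male In (log2 -1.11 ± 0.42, adjusted p = 0.103), and 7.06, 9.32 and 10.3 CPM in female S against 37.9, 13.5 and 10.9 CPM in male S (-1.24 ± 0.42, adjusted p = 0.132). Neither difference passed edgeR's test, while DESeq2 called both (adjusted p = 0.0385 in In and 0.0354 in S). Without male S 1 the log2 fold change in S was -0.446 (edgeR adjusted p = 0.464). The microglia marker sums overlapped between the sexes: they were 1596 to 2415 CPM in female In and 1940 to 2772 CPM in male In, and 1795 to 2409 CPM in female S and 1292 to 2047 CPM in male S. Per 1000 microglia marker counts, Hmox1 had 3.41 to 5.19 counts in female In and 6.17 to 12.2 in male In, and 3.58 to 5.19 in female S and 8.4 to 18.5 in male S.

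Markers of other cell types differed between the sexes in the same libraries. In In, 5 of 10 endothelial, 4 of 8 pericyte and smooth muscle and 6 of 6 choroid plexus markers tested were higher in females, and 2 of 10 astrocyte markers were lower. The astrocyte marker sum was 1297 to 2272 CPM in female In and 3107 to 3691 CPM in male In, without overlap. The choroid plexus sum was 22.64 to 240 CPM in female In and 1.80 to 2.82 CPM in male In, with Ttr at 0 in every day 30 library. In S, 4 of 10 endothelial and 4 of 8 pericyte and smooth muscle markers were higher in females and 1 of 10 astrocyte markers was lower. The endothelial sum was 1295 to 1527 CPM in female S and 1030 to 1088 CPM in male S, without overlap, and the astrocyte sums overlapped. The part of these cells in the levels of Gpx4, Txn1, Gpx1 and Prdx1 by sex was not tested.

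The other members were level or went the other way. Gclc had 23.8, 22.9 and 17.7 CPM in female In against 13.6, 14.3 and 17.7 CPM in male In (log2 0.50 ± 0.20, adjusted p = 0.106). Cat had 32.9, 35.1 and 37.6 CPM in female S against 24.1, 16.8 and 25.5 CPM in male S (0.66 ± 0.28, adjusted p = 0.212), but in In its sexes overlapped. Txnrd1, Sod2 and Nfe2l2 had log2 fold changes between -0.19 and 0.27 in both groups, none past the threshold. In S, 6 of the 10 members had no overlap between the sexes, against 27.1% of all genes tested. In the In libraries 5 members lay wholly below and 2 wholly above in females, against 33.1% of all genes without overlap. Gclc counted as above by less than the digits shown, with 17.73 CPM in both female In 3 and male In 3.

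**Figure D4:**
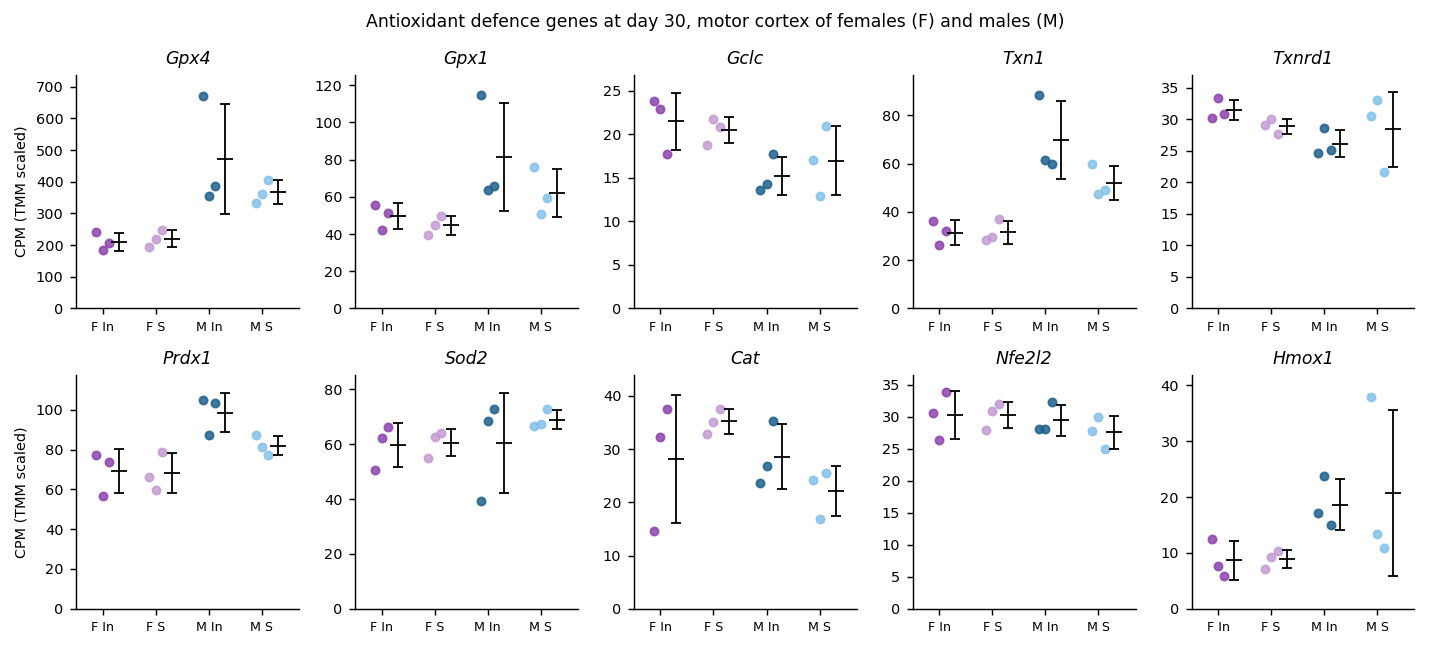
Level of the 10 genes at day 30 in CPM by library, for female In, female S, male In and male S, with a bar for the mean ± SD (n = 3). Gpx4 and Txn1 are lower in all female libraries than in all male ones, and male In 1 is the highest library for Gpx4 (672 CPM), Gpx1 (115 CPM) and Txn1 (88.3 CPM).

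These sex differences depend on the scale. Genes encoded by the mitochondrial genome took 27.1% to 37.5% of the counts in female libraries and 53.7% to 60.3% in male libraries, and the TMM factors were 1.19 to 1.52 in females and 0.676 to 0.842 in males. With library totals alone, the median of all genes tested moved to a log2 of 0.937 in the In libraries and 0.884 in the S libraries. On that scale 0 members were lower in females, and 5 were higher in In and 6 in S. Of all 15074 genes tested, 8916 were higher and 53 lower in In, and 8964 higher and 34 lower in S. In the In libraries Gpx4 (-0.264) and Txn1 (-0.251) lay below that shifted median. With totals that leave out the mitochondrially encoded genes, an alternative chosen after the data were seen, Gpx4 (-0.979, adjusted p = 0.00852) and Txn1 (-0.956, adjusted p = 0.00627) remained lower in female In, Gpx1 (-0.522, adjusted p = 0.14) and Prdx1 (-0.307, adjusted p = 0.208) did not pass, and Gclc was higher (0.706, adjusted p = 0.0201).

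Ratios of genes within a library need no scale, and these pairs were chosen after the values were seen. There were 1.19, 0.784 and 1.04 Txn1 counts per Txnrd1 count in female In 1, 2 and 3, against 3.57, 2.14 and 2.38 in male In. In S the ratio was 0.971, 0.982 and 1.34 in females, against 1.97, 1.43 and 2.25 in males. Gpx4 had 8.01 to 11.6 counts per Gclc count in female In against 21.8 to 49.5 in male In, and 10.1 to 11.8 in female S against 19.4 to 27.8 in male S. In each of these ratios the sexes did not overlap, so Txn1 relative to Txnrd1, and Gpx4 relative to Gclc, were lower in females on any scale.

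**Figure D5:**
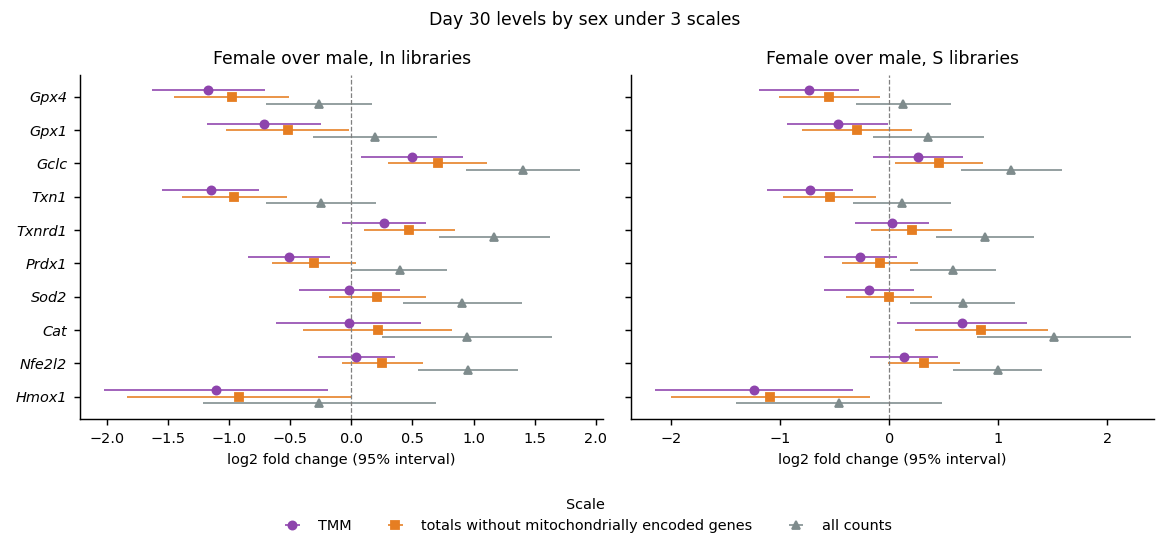
Log2 fold change of female over male at day 30 with its 95% interval, in In (left) and S (right), under TMM, under totals without mitochondrially encoded genes and under all counts. Points shift to higher values from the first scale to the third. Gpx4 and Txn1 in In are below 0 on each scale, but with all counts (-0.264 and -0.251) their intervals include 0. In S both are above 0 with all counts (0.128 and 0.115).

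In the wider pathway set, 7 of 59 genes were lower and 1 higher in female In than in male In, and 1 was lower and 2 higher in S. Of all 15074 genes tested, 6.59% were lower and 920 were higher in In, and 1.27% were lower and 256 were higher in S. Genes of the wider set were followed only in the TMM fit of all libraries. Whether their calls hold on another scale, or with a library left out, was not tested. The lower genes in In were peroxiredoxins and glutaredoxins (Prdx2, Prdx6, Glrx2 and Glrx5, log2 -0.55 to -0.81), the glutathione transferases Gstm1 and Mgst3, and Ftl1. Ftl1, the ferritin light chain, had 412 CPM in female In and 975 CPM in male In (-1.24, adjusted p = 0.00146), and 433 CPM in female S and 768 CPM in male S (-0.83, adjusted p = 0.0249). Bach1, a repressor that competes with NRF2 for its sites, was higher in females in both groups. It had 2.83 CPM in female In against 0.603 CPM in male In (edgeR adjusted p = 0.0305). In S it had 2.79 CPM in females against 0.433 CPM in males (adjusted p = 0.0369). The male values rest on few reads. At that depth 3 counts corresponded to 0.216 to 0.285 CPM in male In and 0.128 to 0.288 CPM in male S. Slc3a2, the partner of the cystine transporter, was higher in female S, with 111 CPM in females and 69.5 CPM in males (0.68, adjusted p = 0.0324).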

How the data were processed

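PolyA RNA of rat motor cortex was sequenced in 18 libraries. Per the submitters' processing notes, HISAT2, the rat build rn6 and edgeR were used, with no versions, and no counting tool is named there. The values as deposited by the authors are whole-number counts of reads for each gene symbol, with a table for each day. That of day 30 ended in 7 blank or summary lines, which were dropped, holds 27 names turned into dates and lists 9706 genes with no read. The tables were counted differently: Fth1 has reads in the day 7 table and 0 in every day 30 library.

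Counts were fitted in R 4.3.3 with edgeR 4.0.16 (TMM, filterByExpr defaults). Its robust quasi-likelihood test was used, with p-values adjusted by Benjamini-Hochberg over all genes tested, at a threshold of 0.05. The biological coefficient of variation was 0.175 for the 6 day 7 libraries and 0.259 for the 12 day 30 libraries. The 12397 genes in both tables were fitted over the male libraries for the change between days (0.226). On simulated data with 200 changed genes the day 7 test found 77% of 2-fold changes. At day 30 it found 27% for In minus S in males and 36% in females. Simulated libraries of a table all shared the same profile and the same spread, without the outlying libraries seen here. These figures therefore do not give the power of the real comparisons, nor a difference between males and females. Counts of members called are set beside the percentage of all genes called. Log2 fold changes carry standard errors and 95% intervals from the fit.

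Alternatives were DESeq2 1.42.0, RLE factors, library totals, no filter, thinned counts, Sham 1 and Sham 1-RNA summed, each library left out, the compared groups alone, a replicate block and leaving out male In 1 and male S 2 together. Deviations of same-numbered In and S libraries correlated by 0.0226 to 0.206, not all above 0.1, so the numbers were not taken as pairs.

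The members, the pathway and marker lists and the tests were chosen with earlier results of these data known. All 10 members are described. From each pathway list up to 6 genes past the threshold could be named by smallest adjusted p, with Keap1, Nqo1, Gclm, Srxn1, Slc7a11 and Sod1 as fixed examples. Promoters came from RefSeq on GRCr8, matched by symbol, and no coordinates were moved between builds. Python 3.11.15 with matplotlib 3.10.9 made the figures.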

Additional observations from a re-analysis of the deposited data

Results flagged for a closer look

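For 6 genes of the wider pathway set the male effect differed between days by the edgeR interaction test. The day 30 In minus S effect minus the day 7 inj minus Sham effect, on the log2 scale, was -0.8673 for Slc3a2 (adjusted p = 0.0106), -0.9022 for Ggt7 (0.0418), -1.258 for Txnip (0.0117) and -1.217 for Tfrc (0.0374). It was 0.7341 for Me1 (0.0368) and 0.9608 for Ftl1 (0.016). At day 30 the male effects of these genes on their own were between -0.14 and 0.34, none past the threshold. Over all genes tested in both tables, 13% had such a difference. Microglia markers differed in the same direction as the genes that were lower, for 10 of 12 markers, and so did 10 of 10 endothelial markers. Their part was not tested. The tables were counted differently, so day and counting cannot be told apart.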

How the results depend on the processing

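Among member values over all settings, 888 kept their direction and side of the threshold, and 82 moved without a call in either setting. Another 23 gained and 30 lost a call. The sign changed for 7, each called in the main fit or in the alternative but not in both. All 7 came with library totals as the scale: female over male in S for Txn1 (0.115), Prdx1 (0.584) and Sod2 (0.673), and in In for Gpx1 (0.194), Prdx1 (0.395), Sod2 (0.908) and Cat (0.946).

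On that scale the members called at day 7 were 4 higher and 0 lower in inj. Of the 11786 genes tested, 3365 were higher and 957 lower. In females against males 6 members were higher and 0 lower in S, and 5 higher and 0 lower in In. Of the 15074 genes tested, 8964 were higher and 34 lower in S, and 8916 higher and 53 lower in In. For day 7, thinning gave 0 members lower, and leaving out each library gave 0 to 2 lower. Over all genes tested, thinning gave 1578 lower and leaving out each library 1221 to 2243 lower. For the change of the male effect between days, leaving out each library gave 0 to 1 member higher: Cat without inj 2 and Prdx1 without Sham 1-RNA. Over all genes tested, the same fits gave 327 to 939 higher. For S by sex, the members lower in females were 3 with DESeq2, 2 without a filter, 2 with the compared groups alone (and 1 higher), 0 with the replicate block, 3 without male In 1 and S 2 together, 0 with totals that omit mitochondrially encoded genes, and 0 whichever S library was left out. For In by sex, they were 5 with DESeq2, which added Hmox1, 2 with the compared groups alone, 2 without male In 1 and S 2 together, 2 (and 1 higher) with totals that omit mitochondrially encoded genes, and 2 to 4 leaving out each library. The total without mitochondrially encoded genes was chosen after seeing the data. Over all genes tested, those lower in female S were 191 in the main fit, 528 with DESeq2 and 236 without a filter. They were 523 (and 423 higher) with the compared groups alone, 7 with the block and 430 without male In 1 and S 2 together. With that total they were 85, and 24 to 175 leaving out each S library. Those lower in female In were 993 in the main fit, 1377 with DESeq2 and 374 with the compared groups alone. They were 766 without male In 1 and S 2 together, and 333 to 1007 leaving out each library. With totals that omit mitochondrially encoded genes 535 were lower and 2256 higher. The cause of these changes between settings was not tested.

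With the replicate block the S difference for Txn1 was -0.762 (adjusted p = 0.154), and 0 members were called between In and S in either sex. Over all genes the block gave 14 higher and 7 lower in S by sex. Between In and S the block was sex and number. For the comparisons by sex it was the number alone, which joins female to male libraries and is no pairing of animals. In males 1 of the In libraries, In 1, correlated best with its own number, and in females In 2. For day 7, no paired analysis was possible because the groups share only the number 3. Sham depth limits day 7: Hmox1 rested on 19 to 24 reads per Sham library.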
